A study of Mus musculus with 12 samples.

Results

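Transcription factor genes that specify dendritic cell (DC) lineages, 10 in all, were followed in DCs of the mouse gut: *Irf4*, *Irf8*, *Batf3*, *Id2*, *Zbtb46*, *Zeb2*, *Klf4*, *Nfil3*, *Bcl6* and *Prdm1*. They were taken as a fixed list of 10 names, matched to the Ensembl identifiers of the count files, and all 10 were among the 20580 genes that could be tested. RNA-seq libraries were made from CD103+CD11b- and CD103-CD11b+ DCs that had been sorted from the small intestine of wild type (WT) mice and of mice labelled Cbfb-cKO, with 3 samples in each of 4 groups. The Cbfb-cKO mice carried floxed *Cbfb* alleles and a CD11c-Cre transgene (CbfbF/F:CD11c-Cre), so that *Cbfb*, which encodes the common partner of the Runx proteins, is deleted in cells that express CD11c. All mice were of mixed background. The labels give no age, and they do not say whether the WT mice carried CD11c-Cre. According to the study's text the samples of a group came from different mice, a small pool of sorted cells went into each library, and CD11c-Cre also acted in some T cells of the gut.

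Conventional DCs (cDCs) fall into 2 lineages. *Irf8*, *Batf3* and *Id2* direct cDC1s, which cross-present antigen and in the gut are CD103+CD11b-, whereas *Irf4* and *Klf4* direct cDC2s, which express CD11b and prime helper T cells. *Zeb2* represses *Id2* and favours cDC2s and plasmacytoid DCs (pDCs) over cDC1s, *Nfil3* acts upstream of the cDC1 programme, *Bcl6* and *Prdm1* (Blimp-1) are transcriptional repressors that oppose each other in lymphocytes, and *Zbtb46* marks the cDC lineage as a whole.

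On GRCm38 with GENCODE M21, *Irf4* lies on chromosome 13 from 30749226 to 30766976 and *Zeb2* on chromosome 2 from 44983632 to 45117395. *Irf8* lies on chromosome 8 from 120736358 to 120756694 and *Prdm1* on chromosome 10 from 44437177 to 44528501. The other members are *Batf3* (chromosome 1, 191097847 to 191108945), *Id2* (chromosome 12, 25093799 to 25097140), *Zbtb46* (chromosome 2, 181387762 to 181459426), *Klf4* (chromosome 4, 55527143 to 55532466), *Nfil3* (chromosome 13, 52967209 to 52981073) and *Bcl6* (chromosome 16, 23965052 to 23988852). All 10 are protein-coding. Reads were counted without regard to strand, and 653 exon bases of *Zeb2*, or 3.27% of its exon length, are shared with the antisense gene *Zeb2os*, which had between 1 and 19 counts of its own in a sample. Reads in those bases cannot be assigned to one of the genes.

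The promoters of 4 members are shown because these genes carried the differences described here. *Irf4* and *Zeb2* were the members that differed between the genotypes, and *Irf8* and *Prdm1* had the largest fold changes between the subsets in each direction. Sequences are from RefSeq (GRCm38.p6), 5′ to 3′ on the gene's strand. They cover the 250 bases before an annotated start, or 243 for *Irf4*, where the window stops before the first annotated exon base. For *Zeb2* the outermost of 4 starts is shown and for *Irf8* both annotated starts are shown. Capitals mark matches, on either strand, to the motifs described next.
Irf4, chr13:30748983-30749225 (+ strand): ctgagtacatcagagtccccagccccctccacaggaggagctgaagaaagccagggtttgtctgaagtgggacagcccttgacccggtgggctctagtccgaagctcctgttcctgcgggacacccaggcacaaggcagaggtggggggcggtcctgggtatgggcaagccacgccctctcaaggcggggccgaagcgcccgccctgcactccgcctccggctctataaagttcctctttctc
Zeb2, chr2:45117443-45117692 (- strand): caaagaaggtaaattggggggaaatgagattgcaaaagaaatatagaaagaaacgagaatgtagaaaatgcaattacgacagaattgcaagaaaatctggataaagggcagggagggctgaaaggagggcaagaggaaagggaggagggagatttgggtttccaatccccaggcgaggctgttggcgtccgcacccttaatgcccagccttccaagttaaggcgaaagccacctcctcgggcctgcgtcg
Irf8, chr8:120736108-120736357 (+ strand): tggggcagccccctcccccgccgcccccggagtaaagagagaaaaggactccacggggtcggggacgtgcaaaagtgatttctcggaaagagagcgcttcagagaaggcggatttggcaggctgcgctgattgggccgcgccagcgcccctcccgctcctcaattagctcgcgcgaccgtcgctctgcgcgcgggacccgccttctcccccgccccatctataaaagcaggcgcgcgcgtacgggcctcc
Irf8, chr8:120738389-120738638 (+ strand): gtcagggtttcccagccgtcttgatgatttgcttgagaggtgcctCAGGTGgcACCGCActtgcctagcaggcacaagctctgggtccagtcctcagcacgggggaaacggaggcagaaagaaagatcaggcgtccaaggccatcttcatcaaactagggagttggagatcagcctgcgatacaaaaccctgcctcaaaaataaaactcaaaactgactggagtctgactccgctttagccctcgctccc
Prdm1, chr10:44458749-44458998 (- strand): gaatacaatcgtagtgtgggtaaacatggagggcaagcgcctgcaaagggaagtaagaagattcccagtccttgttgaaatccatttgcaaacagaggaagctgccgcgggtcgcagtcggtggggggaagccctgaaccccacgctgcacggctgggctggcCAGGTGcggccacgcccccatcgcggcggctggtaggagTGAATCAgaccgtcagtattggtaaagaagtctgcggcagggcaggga

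The 250-base windows of all 10 members, 15 in all, were searched on both strands for letters that correspond to known motifs. Of the letters bound by Runx proteins, TGTGGT was in 0 of 15 windows of the members and in 14% of the 32851 windows of all genes. The variant TGCGGT was in 1 window of the members, at the second start of *Irf8*, and in 5.1% of all windows. TGANTCA, the motif of AP-1 and *Batf* proteins, was in windows of *Zeb2*, *Zbtb46* and *Prdm1* (3 of 15 windows, 6.75% of all windows). The *Zeb2* window shown holds none of these letters, and its match lies at another annotated start. CACCTG, bound by Zeb proteins, was in windows of *Zbtb46*, *Irf8* and *Prdm1* (3 of 15, 17.2% of all). In the second *Irf8* window the match to the Zeb motif and that to the Runx motif lie close together. A match is a description of these letters and not a bound site, and binding was not measured.

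Levels are given as CPM, the counts scaled to library sizes corrected by the TMM method, in the order of replicates 1, 2 and 3. Totals on genes ran from 2161929 to 5863484 counts in a sample, and the lowest count of a member was 14, for *Prdm1* in replicate 1 of WT CD103+CD11b- DCs. *Cbfb* itself lay between 161 and 228 CPM in the WT samples and between 169.7 and 290.2 CPM in those labelled Cbfb-cKO, so its count over the whole gene is no check of the genotype, which is taken from the labels. The identity of the sorts was checked against markers. Of 13 cDC1 markers, 11 were lower in CD103-CD11b+ than in CD103+CD11b- DCs in WT mice and 11 in Cbfb-cKO mice, and *Xcr1*, a chemokine receptor of cDC1s, had a mean of 431 ± 44 CPM in WT CD103+CD11b- and 17.5 ± 13.1 CPM in WT CD103-CD11b+ DCs (SD, n = 3). *Itgam*, which encodes the sort marker CD11b, had 4.33 ± 0.59 and 90.6 ± 13.2 CPM in these groups (SD, n = 3). Of 13 cDC2 markers, *Itgam* among them, 8 were higher and 1, *Clec12a*, was lower in CD103-CD11b+ DCs of WT mice. In Cbfb-cKO mice 11 were higher and 0 lower. Of all tested genes, 11.8% were higher and 7% lower in WT mice, and 9.26% and 6.81% in Cbfb-cKO mice. Transcripts of other cells were also present: summed over 6 pDC markers, WT CD103+CD11b- DCs had between 588 and 1350.0 CPM, and summed over 9 macrophage markers, CD103-CD11b+ DCs had between 168 and 478 CPM. In such pools, fewer cells of a type and less RNA per cell cannot be told apart.

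**Figure D1:**
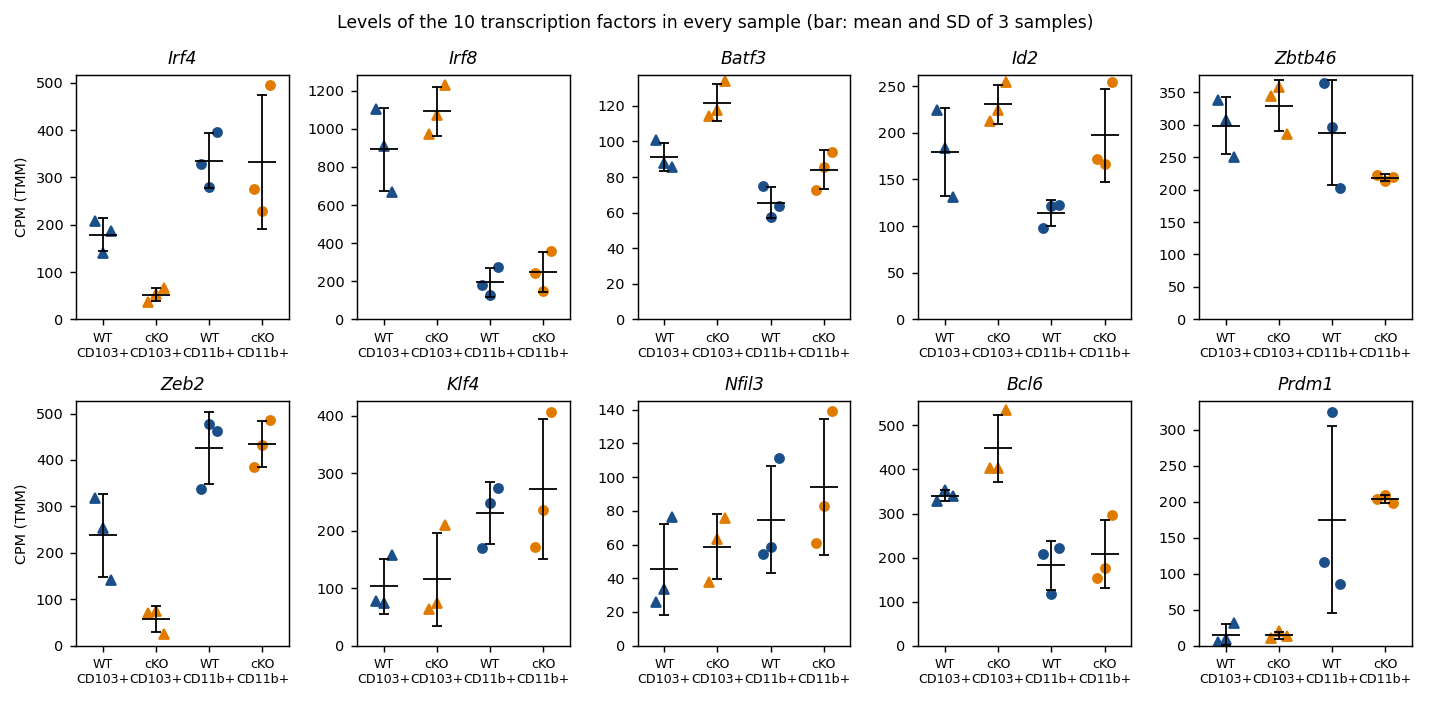
CPM of each transcription factor (y axis, scale differs between panels) in the 3 samples of the 4 groups (x axis; CD103+ stands for CD103+CD11b-, CD11b+ for CD103-CD11b+, cKO for Cbfb-cKO), with the mean and SD as bars. Irf4 and Zeb2 are lower in cKO than in WT CD103+ samples, with no overlap, and Irf8 is at 668 CPM or more in every CD103+ sample and at 359 CPM or less in every CD11b+ sample.

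The first comparison asked how the factors differ between the subsets. In WT mice, CD103-CD11b+ DCs had more *Prdm1* and less *Irf8*, *Bcl6* and *Batf3* than CD103+CD11b- DCs. In Cbfb-cKO mice the same 4 genes differed in the same directions, and *Irf4* and *Zeb2* were higher in CD103-CD11b+ DCs as well. Genes were called at a fold change over 1.3 and a false discovery rate (FDR) under 0.05, the FDR being the adjusted p of the quasi-likelihood test in edgeR after Benjamini and Hochberg. By this rule 4 of 10 members were called in WT mice, where 18.8% of all tested genes were called. Of these 1 was higher and 3 were lower in CD103-CD11b+ DCs, against 11.8% and 7% of all tested genes. In Cbfb-cKO mice 6 of 10 were called, against 16.1%, with 3 higher and 3 lower, against 9.26% and 6.81%.

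*Irf8*, required for cDC1s, stood far above its CD103-CD11b+ level in CD103+CD11b- DCs. Its level was 1102, 910.2 and 668 CPM in WT CD103+CD11b- DCs and 183, 127 and 275 CPM in WT CD103-CD11b+ DCs. In Cbfb-cKO mice it was 975, 1074 and 1230 CPM and 244, 147 and 359 CPM in the same order of subsets. Every CD103+CD11b- sample was above every CD103-CD11b+ sample in both genotypes. The log2 fold change of CD103-CD11b+ over CD103+CD11b- was -2.20 in WT mice (SE 0.35, adjusted p = 0.00246) and -2.13 in Cbfb-cKO mice (SE 0.35, adjusted p = 0.00171), both by edgeR's quasi-likelihood test. Both calls held when any 1 sample was left out and under all 6 other settings tried. *Irf8* is also known from pDCs, whose markers summed to between 284 and 1350.0 CPM in the CD103+CD11b- and between 138 and 285 CPM in the CD103-CD11b+ samples, with 4 of 6 lower in the WT and 1 of 6 lower in the Cbfb-cKO CD103-CD11b+ DCs. Their part in the difference of *Irf8* was not tested.

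*Batf3*, which maintains *Irf8* in cDC1s, had a much smaller fold change between the subsets than *Irf8*. It was at 101, 87.9 and 85.5 CPM in WT CD103+CD11b- DCs and at 75.2, 57.6 and 64.0 CPM in WT CD103-CD11b+ DCs. In Cbfb-cKO mice it was at 114.5, 117 and 134 CPM and at 72.5, 85.4 and 94.3 CPM. The groups did not overlap in either genotype, and *Batf3* was thus well detected in the CD11b+ subset too. The log2 fold changes were -0.47 (SE 0.14, adjusted p = 0.0371) and -0.54 (SE 0.14, adjusted p = 0.0226) by edgeR's quasi-likelihood test. The call in WT mice was lost in 3 of the 6 other settings (RLE size factors, no filter beyond 1 count and a fit of these samples alone), and without either of WT CD103+CD11b- replicates 1 and 2 or WT CD103-CD11b+ replicates 2 and 3. That in Cbfb-cKO mice was lost without CD103+CD11b- replicate 3 or CD103-CD11b+ replicates 1 or 2.

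*Bcl6*, a repressor that is highly expressed in cDC1s, was at 328, 353 and 339 CPM in WT CD103+CD11b- DCs and at 208, 118 and 221 CPM in WT CD103-CD11b+ DCs. In Cbfb-cKO mice it was at 404, 404 and 535 CPM and at 154, 176 and 297 CPM. The CD103+CD11b- samples were above all CD103-CD11b+ samples of their genotype. The log2 fold changes were -0.90 (SE 0.27, adjusted p = 0.0396) in WT and -1.10 (SE 0.27, adjusted p = 0.0175) in Cbfb-cKO mice by edgeR's quasi-likelihood test. In WT mice the call was lost in a fit of these samples alone, and without any 1 of the 3 CD103+CD11b- samples or CD103-CD11b+ replicate 2, and in Cbfb-cKO mice without CD103+CD11b- replicate 3 or CD103-CD11b+ replicates 1 or 2.

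*Id2*, an inhibitor of E proteins that is needed for cDC1s, was at 224, 184 and 131 CPM in WT CD103+CD11b- DCs and at 97.5, 121 and 122 CPM in WT CD103-CD11b+ DCs. These ranges did not overlap, but the difference did not pass (log2 fold change -0.66, SE 0.21, adjusted p = 0.0517, edgeR's quasi-likelihood test). It was called in 4 of the 6 other settings and in 1 of the 6 fits without 1 sample. In Cbfb-cKO mice *Id2* was at 213, 224 and 254 CPM and at 171, 166 and 254 CPM, so that the subsets overlapped. Its log2 fold change there was -0.23 (SE 0.21, adjusted p = 0.494, edgeR's quasi-likelihood test).

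*Nfil3*, placed above *Batf3* and *Id2* in cDC1 development, had fold changes above 0 between the subsets, neither of which passed. Its level was 26.0, 33.9 and 76.3 CPM in WT and 37.5, 63.2 and 75.5 CPM in Cbfb-cKO CD103+CD11b- DCs. In CD103-CD11b+ DCs it was 54.6, 58.3 and 111 CPM in WT and 60.6, 82.6 and 139 CPM in Cbfb-cKO mice. The groups overlapped, and replicate 3 was the highest sample in each of the 4 groups. The log2 fold changes between the subsets were 0.71 (SE 0.46, adjusted p = 0.307) and 0.68 (SE 0.46, adjusted p = 0.338) by edgeR's quasi-likelihood test. *Nfil3* was higher in CD103-CD11b+ DCs in each of the 3 same-numbered pairs of Cbfb-cKO mice, and with the replicate number as a block it was called there (adjusted p = 0.0154, edgeR's quasi-likelihood test).

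*Prdm1*, a repressor known from plasma cells and gut DCs, had the largest fold change between the subsets among the 10. It was at 4.79, 8.92 and 32.0 CPM in WT and at 9.99, 20.3 and 12.9 CPM in Cbfb-cKO CD103+CD11b- DCs. In CD103-CD11b+ DCs it was at 116, 324 and 85.5 CPM in WT and at 204, 209 and 198 CPM in Cbfb-cKO mice. No CD103+CD11b- sample reached the lowest CD103-CD11b+ sample. The log2 fold changes were 3.46 (SE 0.66, adjusted p = 0.00648) and 3.82 (SE 0.67, adjusted p = 0.00296) by edgeR's quasi-likelihood test, or 10.97-fold and 14.1-fold. Both calls held when any 1 sample was left out. The log2 fold change then lay between 2.64 and 4.56 in WT and between 3.60 and 4.17 in Cbfb-cKO mice.

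Macrophage transcripts moved in the same direction as *Prdm1*. The sum of 9 macrophage markers was between 21.1 and 76.2 CPM in the 6 CD103+CD11b- samples and between 168 and 478 CPM in the 6 CD103-CD11b+ samples, and 6 of 9 markers were higher in CD103-CD11b+ DCs in WT and 5 of 9 in Cbfb-cKO mice. *Fcgr1*, which encodes the macrophage surface protein CD64 that the gate for cDCs excludes, had between 4.94 and 11.7 CPM in the CD103-CD11b+ samples. Sums of 6 stromal markers had means of 296 and 1255 CPM in WT CD103+CD11b- and CD103-CD11b+ DCs, with *Pecam1* alone called as higher. In Cbfb-cKO mice these sums overlapped, at 101 to 358 and 333 to 1722 CPM, with *Pecam1* and *Pdgfra* called. Means of the sums of 6 plasma cell markers were 579 and 956 CPM in the WT groups, with no plasma cell marker called. The gate for gut cDCs, as the study describes it, is CD45+CD64-CD11c+MHC-II+. How many macrophages, stromal cells or plasma cells passed it was not measured. Their part in the result for *Prdm1* was not tested.

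*Irf4*, the factor that directs cDC2s, was at 209, 141 and 188 CPM in WT CD103+CD11b- DCs and at 329, 280.2 and 396 CPM in WT CD103-CD11b+ DCs. The WT groups did not overlap, and the difference narrowly missed the threshold (log2 fold change 0.90, SE 0.29, adjusted p = 0.0517, edgeR's quasi-likelihood test). It was called in 5 of the 6 other settings, all but RLE size factors, and in none of the 6 fits without 1 sample. In Cbfb-cKO mice *Irf4* was at 37.3, 54.2 and 66.1 CPM in CD103+CD11b- and at 277, 229 and 495 CPM in CD103-CD11b+ DCs. The groups were again apart, with a log2 fold change of 2.67 (SE 0.31, adjusted p = 0.000219, edgeR's quasi-likelihood test), or 6.36-fold. *Irf4* is also expressed by B and plasma cells. The sum of 7 B-cell markers was between 25.8 and 43.5 CPM in the Cbfb-cKO CD103+CD11b- and between 99.9 and 521 CPM in the Cbfb-cKO CD103-CD11b+ samples, where 4 of 7 were called as higher. That of 6 plasma cell markers was between 255 and 904 CPM and between 657 and 1253 CPM, with none called. The gate has a CD11c+ step, and how many B and plasma cells passed it was not measured. Their part in the difference of *Irf4* was not tested.

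*Zeb2*, the repressor that favours cDC2s and pDCs, was at 318, 254 and 142 CPM in WT CD103+CD11b- and at 337, 478 and 462 CPM in WT CD103-CD11b+ DCs, which did not pass (log2 fold change 0.84, SE 0.36, adjusted p = 0.125, edgeR's quasi-likelihood test). In Cbfb-cKO mice it was at 70.3, 75.7 and 25.4 CPM and at 386, 432 and 486 CPM. The log2 fold change there was 2.91 (SE 0.39, adjusted p = 0.000497, edgeR's quasi-likelihood test), or 7.53-fold. The calls of *Irf4* and *Zeb2* between the Cbfb-cKO subsets held without any 1 sample and under all 6 other settings.

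*Klf4*, required for a part of the cDC2s, was at 77.6, 74.1 and 157 CPM in WT and at 63.5, 74.0 and 209 CPM in Cbfb-cKO CD103+CD11b- DCs. In CD103-CD11b+ DCs it was at 171, 249 and 275 CPM in WT and at 172, 237 and 407 CPM in Cbfb-cKO mice. Replicate 3 was again the highest in all 4 groups, by a wide margin in CD103+CD11b- DCs. The log2 fold changes between the subsets were 1.16 (SE 0.48, adjusted p = 0.115) and 1.24 (SE 0.49, adjusted p = 0.106) by edgeR's quasi-likelihood test, neither of which passed. *Klf4* was also higher in CD103-CD11b+ DCs in each of the 3 same-numbered pairs of Cbfb-cKO mice, and it was called there with the block (adjusted p = 0.00277, edgeR's quasi-likelihood test).

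*Zbtb46*, which separates cDCs from other myeloid cells, was at 338, 307 and 251 CPM in WT CD103+CD11b- and at 364, 296 and 203 CPM in WT CD103-CD11b+ DCs, with a log2 fold change of -0.05 (SE 0.19, adjusted p = 0.890, edgeR's quasi-likelihood test). In Cbfb-cKO mice it was at 345, 358 and 285 CPM and at 223, 214 and 219 CPM. The Cbfb-cKO groups did not overlap, and the log2 fold change of -0.59 (SE 0.19, adjusted p = 0.0576, edgeR's quasi-likelihood test) missed the threshold, which it passed in 3 of the 6 other settings.

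The subsets of Cbfb-cKO mice were also fitted as pairs with the same replicate number. Deviations from the group mean of same-numbered samples correlated at r = 0.11, 0.32 and 0.35, over the limit of 0.1 set here. The labels do not say what equal numbers share, and samples with different numbers were not compared, so the pairing is an assumption. The fit also blocked the WT samples, where r was -0.08 for number 2. With the replicate number as a block, 9 of 10 members were called between the Cbfb-cKO subsets, against 21.5% of all tested genes in the same fit, namely the 6 above and *Zbtb46* (log2 fold change -0.59, adjusted p = 0.00885), *Klf4* (1.36, adjusted p = 0.00277) and *Nfil3* (0.65, adjusted p = 0.0154), by edgeR's quasi-likelihood test. *Id2* was the member that was not called. By ranges alone, the subsets did not overlap for 8 of 10 members in WT mice, against 38.1% of all tested genes, and for 7 of 10 in Cbfb-cKO mice, against 34%. For the 10 members the median log2 fold change was 0.33 in WT and 0.22 in Cbfb-cKO mice, beside 0.07 and 0.11 for all tested genes, and 5 members were positive and 5 negative in each genotype.

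**Figure D2:**
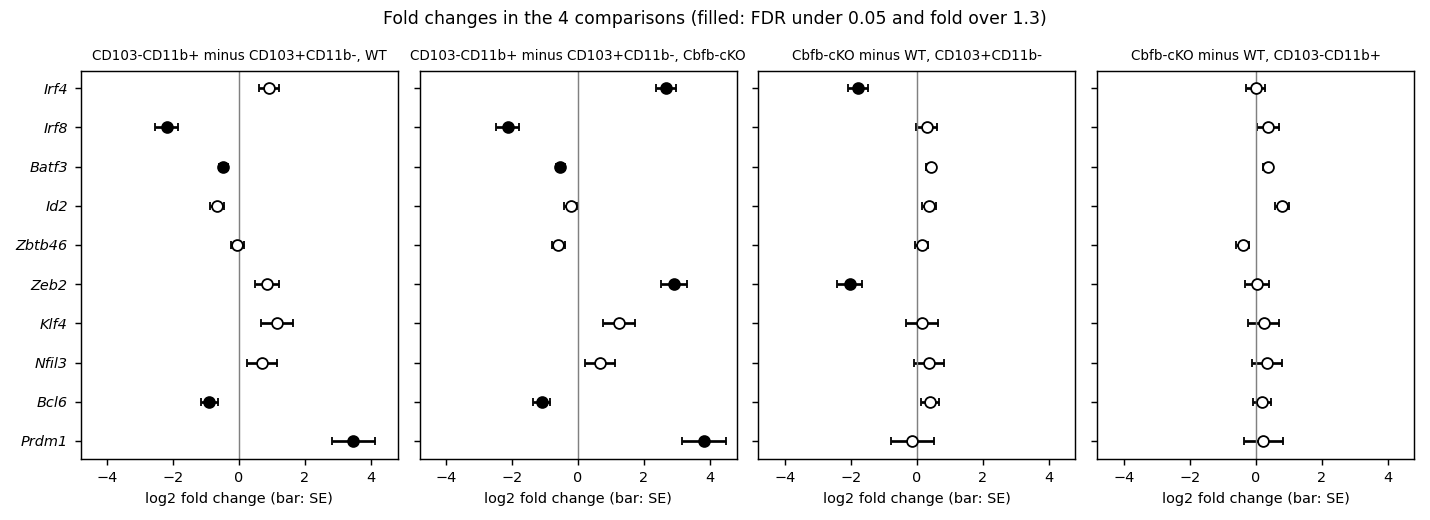
Log2 fold change (x axis, bar: SE) of each transcription factor (y axis) in the 4 comparisons, with filled points where the gene was called. Irf8 and Prdm1 lie far from 0 in both subset comparisons, and in the genotype comparisons Irf4 (-1.78) and Zeb2 (-2.04) in CD103+CD11b- DCs are the filled points.

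The next question was how loss of *Cbfb*, and with it of Runx function, touched the factors within CD103+CD11b- DCs. *Irf4* and *Zeb2* were called as lower, and no member was called as higher. These were 2 of 10, where 1.02% of all tested genes were called, 0.797% as lower and 0.224% as higher. The other 8 members had log2 fold changes between -0.14 (*Prdm1*) and 0.42 (*Batf3*). The fold changes of 7 of 10 members were positive, and none of these was called. They were *Irf8*, *Batf3*, *Id2* and *Bcl6*, on the cDC1 side, and also *Nfil3*, *Klf4* and *Zbtb46*.

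The mean of *Irf4* was 179 ± 34.8 CPM in WT and 52.5 ± 14.5 CPM in Cbfb-cKO CD103+CD11b- DCs (SD, n = 3), and the lowest WT sample, at 141 CPM, was above the highest Cbfb-cKO sample, at 66.1 CPM. The log2 fold change was -1.78 (SE 0.30, adjusted p = 0.0241, edgeR's quasi-likelihood test), a 3.43-fold difference. Without any 1 of the 6 samples it lay between -1.97 and -1.58, but the call was lost without replicate 1 or 2 of either genotype, where the adjusted p reached up to 0.113 by edgeR's quasi-likelihood test. The other 6 settings all called it.

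The mean of *Zeb2* was 238 ± 89.1 CPM in WT and 57.1 ± 27.6 CPM in Cbfb-cKO CD103+CD11b- DCs (SD, n = 3). The WT samples reached down to 142 CPM and the Cbfb-cKO samples up to 75.7 CPM, so that the groups did not overlap. The log2 fold change was -2.04 (SE 0.38, adjusted p = 0.0344, edgeR's quasi-likelihood test), a 4.12-fold difference. It lay between -2.31 and -1.70 without any 1 sample, and the call was lost without the same 4 samples as for *Irf4* and in a fit to the 6 CD103+CD11b- samples alone.

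Markers of other DCs also differed between these samples. Summed over 6 pDC markers, the CD103+CD11b- samples had 1350.0, 1088 and 588 CPM in WT and 451, 510.4 and 284 CPM in Cbfb-cKO mice. The order of the samples within each genotype was that of *Zeb2* but not that of *Irf4*. *Siglech*, a defining surface receptor of pDCs, was at 464, 358 and 159.6 CPM in WT and at 111, 149.9 and 18.0 CPM in Cbfb-cKO mice. None of the 6 pDC markers was called, and their median log2 fold change was -1.38, beside -0.02 for all tested genes.

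Of 13 cDC2 markers, 3 were lower and 1 was higher in Cbfb-cKO CD103+CD11b- DCs, against 0.797% and 0.224% of all tested genes, with a median log2 fold change of -0.39. The sum of these 13 cDC2 markers was 628, 514 and 435 CPM in WT and 312, 384 and 297 CPM in Cbfb-cKO CD103+CD11b- DCs, without overlap. *Sirpa*, a surface receptor of cDC2s, fell by 2.74 on the log2 scale (adjusted p = 0.0420), *Cd209a*, a lectin of CD11b+ DCs, by 2.80 (adjusted p = 0.0470) and *Clec4a4*, the lectin DCIR2, by 4.27 (adjusted p = 0.00490), whereas *Clec12a* was higher by 0.86 (adjusted p = 0.0398), all by edgeR's quasi-likelihood test. *Itgam* was at 4.79, 3.66 and 4.53 CPM in WT and at 5.99, 10.98 and 7.43 CPM in Cbfb-cKO mice, without overlap but not called (log2 fold change 0.92, adjusted p = 0.239, edgeR's quasi-likelihood test). Of 8 other transcription factor and Notch genes of the cDC2 side, none was called by that test, their median log2 fold change was 0.16, and their sum was between 2647 and 2710 CPM in WT and between 2931 and 3734 CPM in Cbfb-cKO mice. No gene of the pDC or cDC2 marker lists was at 0 throughout a CD103+CD11b- group.

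In the same CD103+CD11b- samples, the sum of 7 epithelial markers was between 115 and 276 CPM in WT and between 24.2 and 121 CPM in Cbfb-cKO mice, but the list did not move one way. Its lower sum came from *Cdh1*, with means of 150.2 ± 75.8 CPM in WT and 25.5 ± 19.7 CPM in Cbfb-cKO mice (SD, n = 3), and from *Epcam*, with 42.9 ± 6.91 and 11.5 ± 6.36 CPM (SD, n = 3), the 1 marker called. The means of the other 5 epithelial markers were higher in Cbfb-cKO mice, none of them called, and the median log2 fold change of the list was 1.31. The sum of 6 markers of NK cells and innate lymphoid cells was between 91.5 and 197 CPM in WT and between 20.7 and 62.0 CPM in Cbfb-cKO mice. Most of that sum was *Il7r*, with means of 141 ± 67.9 and 32.0 ± 19.0 CPM (SD, n = 3), none of the 6 was called, *Ncr1* was at 0 in all of these samples, and the median log2 fold change was -0.07. For the sequenced cells the study names CD103 and CD11b and does not restate the other steps of its gate. How many epithelial cells, NK cells, innate lymphoid cells or cDC2s were among the sorted cells was not measured. The part of pDCs, cDC2s or other cells in the fall of *Irf4* and *Zeb2* was not tested.

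**Figure D3:**
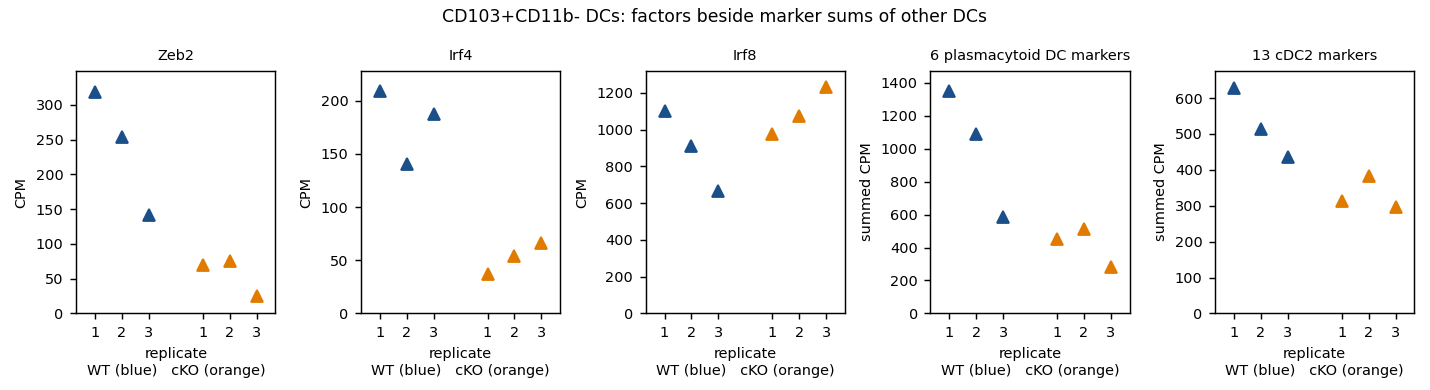
CPM of Zeb2, Irf4 and Irf8 and summed CPM of 6 pDC and 13 cDC2 markers (y axes) in the CD103+CD11b- samples by replicate (x axis), WT in blue and Cbfb-cKO in orange. Zeb2 is at 318, 254 and 142 CPM in WT and at 70.3, 75.7 and 25.4 CPM in Cbfb-cKO samples. In the same order, Irf4 is at 209, 141 and 188 CPM and at 37.3, 54.2 and 66.1 CPM. Irf8 is at 1102, 910.2 and 668 CPM and at 975, 1074 and 1230 CPM. The pDC sum is at 1350.0, 1088 and 588 CPM and at 451, 510.4 and 284 CPM.

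*Irf8* had means of 893 ± 217 CPM in WT and 1093 ± 128 CPM in Cbfb-cKO CD103+CD11b- DCs (SD, n = 3), with a log2 fold change of 0.29 (SE 0.33, adjusted p = 0.879, edgeR's quasi-likelihood test). *Batf3* was higher in every Cbfb-cKO than in every WT sample, and its log2 fold change of 0.42 (SE 0.14, adjusted p = 0.244, edgeR's quasi-likelihood test) did not pass. *Bcl6* likewise did not overlap (log2 fold change 0.40, SE 0.27, adjusted p = 0.732, edgeR's quasi-likelihood test). In all, 4 of 10 members did not overlap between the genotypes, against 18.1% of all tested genes. For the 10 members the median log2 fold change was 0.22, and -0.02 for all tested genes.

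In CD103-CD11b+ DCs no member was called, by edgeR's quasi-likelihood test, between Cbfb-cKO and WT mice, where 1.61% of all tested genes were called. At an unadjusted p under 0.05 there were 2 of 10 members, *Id2* and *Batf3*, against 17.4% of all tested genes, and DESeq2 called 1, *Id2*, against 5.52%. *Irf4* had means of 335 ± 58.1 CPM in WT and 333 ± 142 CPM in Cbfb-cKO mice (SD, n = 3), and its log2 fold change was -0.01 (SE 0.29, adjusted p = 0.996, edgeR's quasi-likelihood test). *Zeb2* had means of 426 ± 77.6 and 435 ± 50.1 CPM (SD, n = 3) and a log2 fold change of 0.03 (SE 0.36, adjusted p = 0.986, edgeR's quasi-likelihood test). The standard errors of these fold changes leave room for moderate differences in either direction.

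*Id2* was the member with the smallest p in this subset. Its level was 97.5, 121 and 122 CPM in WT and 171, 166 and 254 CPM in Cbfb-cKO CD103-CD11b+ DCs, and it was the 1 of 10 members whose genotypes did not overlap, against 20.1% of all tested genes. The log2 fold change was 0.79 (SE 0.21, adjusted p = 0.0883, edgeR's quasi-likelihood test), which did not pass. It was called when genes needed 5 or more counts in every sample and with DESeq2. *Zbtb46* had a log2 fold change of -0.40 (SE 0.19, adjusted p = 0.310, edgeR's quasi-likelihood test), and WT replicate 3, at 203 CPM, was below all Cbfb-cKO samples.

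Whether loss of *Cbfb* acted differently in the subsets was tested as the difference of the genotype differences, that in CD103-CD11b+ minus that in CD103+CD11b- DCs. No member was called by edgeR's quasi-likelihood test, where 0.651% of all tested genes were called. At an unadjusted p under 0.05 there were 2 of 10 members, *Irf4* and *Zeb2*, against 11.1% of all tested genes, and DESeq2 called both, against 2.46%. The difference was 1.77 on the log2 scale for *Irf4* (SE 0.42, adjusted p = 0.110) and 2.07 for *Zeb2* (SE 0.52, adjusted p = 0.133) by edgeR's quasi-likelihood test. The fall of *Irf4* and *Zeb2* in CD103+CD11b- DCs is thus not shown by this test to differ from their change in CD103-CD11b+ DCs. This contrast, the genotype contrast and the Cbfb-cKO subset contrast share the Cbfb-cKO CD103+CD11b- samples and are not separate evidence for either gene.

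Levels of different genes were compared per kilobase of merged exon (RPKM). In WT CD103+CD11b- DCs the order was led by *Irf8* (127 ± 30.8 RPKM), *Id2* (73.6 ± 19.2), *Batf3* (57.2 ± 5.06) and *Bcl6* (50.8 ± 1.87; SD, n = 3), and it ended with *Zeb2* (11.9 ± 4.47) and *Prdm1* (2.73 ± 2.63). The first was 46.4-fold above the last, a ratio that rests on *Prdm1* at 0.86, 1.60 and 5.74 RPKM in replicates 1, 2 and 3. *Irf4*, *Zbtb46*, *Klf4* and *Nfil3* lay between, at 36.5, 35.1, 33.8 and 22.4 RPKM, and the ranges of neighbours among these 4 overlapped. In Cbfb-cKO CD103+CD11b- DCs the same 4 genes led, and *Irf4* stood at 10.7 ± 2.95 RPKM (SD, n = 3), in place 8 instead of 5. *Zeb2* at 2.87 and *Prdm1* at 2.58 RPKM came last and overlapped.

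In CD103-CD11b+ DCs the 10 factors lay much closer together. *Klf4* led in both genotypes, at 75.9 ± 17.8 RPKM in WT and 89.3 ± 39.8 RPKM in Cbfb-cKO mice (SD, n = 3), followed by *Irf4* at 68.3 and then *Id2* at 46.7 RPKM in WT mice and by *Id2* at 80.9 and then *Irf4* at 68.0 RPKM in Cbfb-cKO mice. *Zeb2* was last, at 21.4 and 21.8 RPKM. The first was 3.55-fold above the last in WT and 4.10-fold in Cbfb-cKO mice, and the ranges of 8 of 9 pairs of neighbours overlapped in each genotype. The order within this subset is therefore mostly not resolved by 3 samples.

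**Figure D4:**
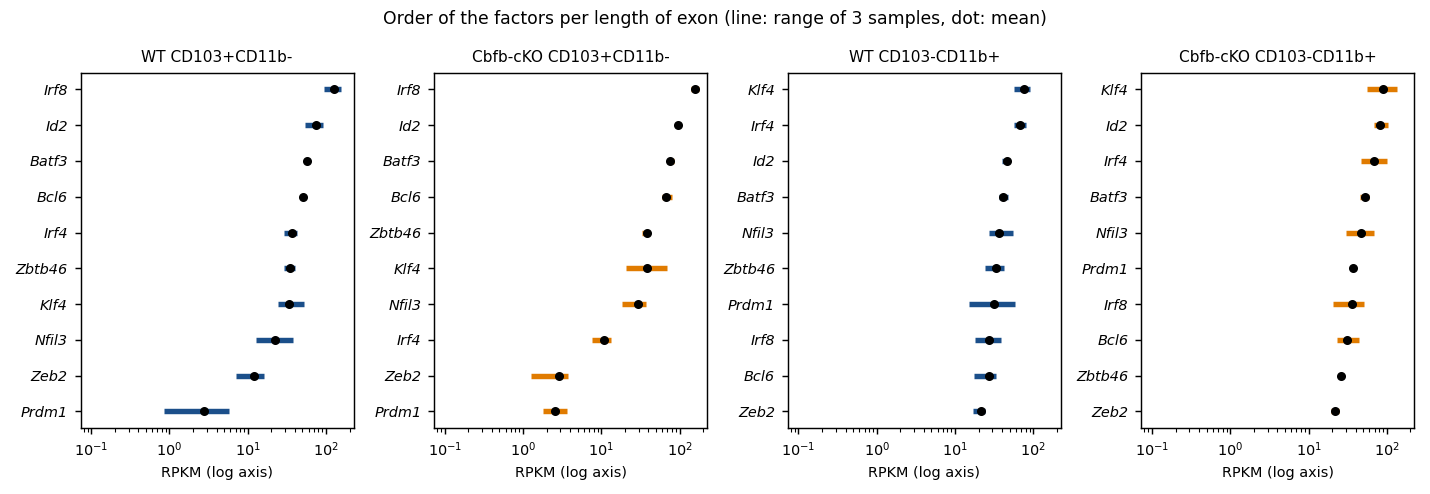
RPKM (x axis, log scale) of the transcription factors ordered by their mean in each of the 4 groups, with the range of the 3 samples as a line and the mean as a dot. The means span 46.4-fold in WT and 60.1-fold in Cbfb-cKO CD103+CD11b- DCs and 3.55-fold and 4.10-fold in CD103-CD11b+ DCs.

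For each factor, the genes with the most similar pattern were sought by Pearson's r of log2 CPM over the 12 samples among 9843 protein-coding genes. These samples share libraries and group differences, so r is a description. For *Prdm1*, *Abca9* was among the most similar genes (r = 0.98). *Zeb2* was most like *Cybb*, which encodes a subunit of the phagocyte oxidase (r = 0.98), and *Cd209a* (r = 0.98), whereas *Irf4* was most like the cytokine gene *Il1b* (r = 0.98) and the inhibitory receptor gene *Cd300a* (r = 0.98). *Irf8* was most like *Ppt1* (r = 0.99), a lysosomal enzyme gene that is among the cDC1 markers, and *Slc8b1* (r = 0.99). *Klf4* was most like *Zfand5* and *Jun* (r = 0.98 for both), and *Nfil3* like *Ppp1r15a* (r = 0.96) and *Nrip1* (r = 0.95). *Jun*, an immediate early gene, was at 182, 177 and 301 CPM in WT and at 186, 175 and 441 CPM in Cbfb-cKO CD103+CD11b- DCs, with replicate 3 the highest in both, as for *Klf4*. *Batf3* was most like *Usp12* (r = 0.98) and *Tbc1d9* (r = 0.97), *Id2* like *Mob1a* and *Mbnl1* (r = 0.97 for both), *Bcl6* like *Pphln1* and *Asna1* (r = 0.97 for both), and *Zbtb46* like *Cic* (r = 0.95) and *Rnf220* (r = 0.92).

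A list of 36 other transcription factor and Notch pathway genes of myeloid and DC lineages gives the setting. Between the WT subsets, 7 of 36 were higher and 4 lower in CD103-CD11b+ DCs, against 11.8% and 7% of all tested genes. Between the Cbfb-cKO subsets, 9 were higher and 3 lower, against 9.26% and 6.81%. The median log2 fold changes were 0.16 and 0.36, beside 0.07 and 0.11 for all tested genes. Of 7 genes of the monocyte and macrophage side, 3 were higher in both genotypes, namely the liver X receptor gene *Nr1h3* (log2 fold change 3.05 in WT and 4.12 in Cbfb-cKO mice), *Cebpb* (1.80 and 2.35) and *Bhlhe40* (0.85 and 1.11). *Mycl*, which sustains cDC1 proliferation, was lower (-2.12 and -2.56), as were *Zfp366*, encoding DC-SCRIPT (-0.73 and -0.98), and *Rbpj*, the effector of Notch signalling (-0.82 and -0.69). *Batf*, a relative of *Batf3*, was higher (0.89 and 0.98), opposite to *Batf3* itself. The Runx genes *Runx3* (1.15) and *Runx2* (1.33) were called as higher in CD103-CD11b+ DCs between the Cbfb-cKO subsets. Between the WT subsets neither was called by edgeR's quasi-likelihood test, with a log2 fold change of 0.25 for *Runx3* (adjusted p = 0.403) and of the opposite sign, -0.94, for *Runx2* (adjusted p = 0.0608), whose means were 144 CPM in CD103-CD11b+ and 276 CPM in CD103+CD11b- DCs without overlap.

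Between the genotypes, 1 of the 36 was called in CD103+CD11b- DCs, against 1.02% of all tested genes. This was *Egr2*, an immediate early and macrophage factor, at 79.3, 74.4 and 123 CPM in WT and at 177, 299 and 359 CPM in Cbfb-cKO mice (log2 fold change 1.59, SE 0.30, adjusted p = 0.0394, edgeR's quasi-likelihood test). *Tcf4*, the master factor of pDCs, was at 733, 651 and 318 CPM in WT and at 227, 275 and 118 CPM in Cbfb-cKO mice, and its log2 fold change of -1.45 (SE 0.39, adjusted p = 0.133, edgeR's quasi-likelihood test) did not pass. *Spib* and *Runx2*, also known from pDCs, had log2 fold changes of -2.19 (adjusted p = 0.185) and -1.21 (adjusted p = 0.125) by edgeR's quasi-likelihood test. None of the 36 was called between the genotypes in CD103-CD11b+ DCs, against 1.61% of all tested genes.

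**Figure D5:**
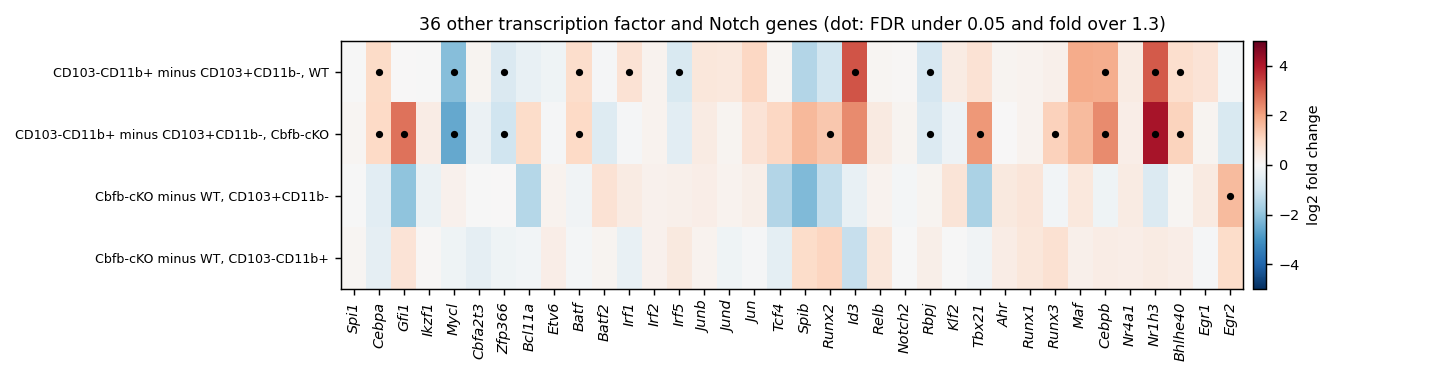
Log2 fold change (colour) of 36 other transcription factor and Notch pathway genes (x axis) in the 4 comparisons (rows), with a dot where the gene was called. Dots stand for 11 genes in the WT and 12 in the Cbfb-cKO subset comparison, for Egr2 alone between the genotypes of CD103+CD11b- DCs, and for none in CD103-CD11b+ DCs.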

How the data were processed

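RNA-seq of 12 samples of sorted gut DCs was used. Libraries were made from small pools of cells by a RamDA-seq protocol and amplified by PCR. The authors trimmed the reads with Trim Galore, mapped them to mm10 with STAR 2.7, removed reads of low mapping quality and duplicates, and deposited raw counts per gene from htseq-count, run without strand. Of the deposited reads, between 59.7% and 66.1% per sample fell on no annotated exon. The 5 summary lines were left out. Symbols and positions came from GENCODE M21 (GRCm38), which matched 53706 of 53801 identifiers, and promoters from RefSeq (GRCm38.p6).

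A gene was tested if 1 or more samples had at least 5 counts. Tests were made with edgeR 4.0.16 (R 4.3.3), by the quasi-likelihood F-test in 1 model of the 4 groups with TMM normalization and Benjamini-Hochberg adjustment over all 20580 genes. The 10 members and the other lists were chosen with earlier results of these data known. Named besides the members were up to 4 called genes of a list with the smallest p, defining markers, overlapping genes and the 2 genes most like each member with a mean of at least 10 CPM. *Tcf4*, *Spib* and *Runx2*, in the genotype comparison, were chosen after their values were seen. A few other genes that the rule would name are not reported here.

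Replicates differed by more than sampling noise in every group (chi-square per degree of freedom 2.62 to 25.9). The labels number replicates 1 to 3 in each group. Deviations from the group mean of same-numbered samples correlated across genes with r = 0.11, 0.32 and 0.35 between the Cbfb-cKO subsets, which were therefore treated as pairs too; in the other comparisons at least 1 pair was under 0.1. Alternatives were RLE factors, DESeq2 1.42.0, other filters, no fold limit, the samples of a comparison alone, a replicate block and leaving out each sample.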

Additional observations from a re-analysis of the deposited data

How the results depend on the processing

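For the 42 fold changes of members, 514 alternative values were computed, of which 440 kept their direction and side of the threshold, 27 lost and 25 gained the call, and 22 changed sign. None of the values that changed sign was called. *Irf4* between the genotypes of CD103-CD11b+ DCs was 0.0068 with RLE factors, 0.038 in the samples of the comparison alone and 0.0081 with DESeq2, and *Zbtb46* between the WT subsets was 0.0033 when genes needed 5 counts in every sample. Leaving out each sample, the genotype difference in CD103-CD11b+ DCs ranged from -0.41 to 0.20 for *Irf4*, from -0.091 to 0.13 for *Zeb2*, from -0.18 to 0.50 for *Klf4*, from -0.061 to 0.75 for *Nfil3*, from -0.15 to 0.39 for *Bcl6* and from -0.082 to 1.03 for *Prdm1*. In CD103+CD11b- DCs it ranged from -0.59 to 0.61 for *Klf4* and from -0.52 to 1.03 for *Prdm1*, and between the WT subsets from -0.31 to 0.10 for *Zbtb46*. The number of members called ranged from 2 to 4 between the WT subsets, from 4 to 6 between the Cbfb-cKO subsets and from 0 to 2 between the genotypes of CD103+CD11b- DCs, and was 0 for the other contrasts. The genes called ranged from 1410 to 4140, 2124 to 3638, 46 to 241, 121 to 517 and, for the difference of genotype differences, 29 to 210. Between the genotypes of CD103+CD11b- DCs, the samples alone gave 1 member, and 320 genes were called with no filter and 652 with DESeq2 (210 as reported). In CD103-CD11b+ DCs, 5 counts in every sample gave 1 member and 573 genes, DESeq2 gave 1 member and 1136 genes, and the samples alone gave 27 genes (331 as reported). For the difference of genotype differences, no filter gave 2 members and 205 genes and DESeq2 2 members and 506 genes (134 as reported). The causes were not tested. At least 1 same-numbered pair correlated under 0.1 in each comparison outside the Cbfb-cKO subsets. In no comparison do the labels say what a shared replicate number stands for. With that number as a block, 8 members were called between the WT subsets, where 5196 or 25.2% of all tested genes were called, and 1 (*Irf4*) for the difference of genotype differences, where 1.59% were, and the genes called were 522 and 849 between the genotypes of CD103+CD11b- and CD103-CD11b+ DCs and 328 for that difference. The block changed no other count by over 1.5 times. Between the Cbfb-cKO subsets, as given above, 9 in place of 6 members were called. Depth limits *Prdm1* most, since 3 counts were worth between 0.485 and 1.53 CPM and its lowest level was 4.79 CPM.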
